A study of Caenorhabditis elegans with 24 samples.

Results

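Small RNA was compared between embryos of the nematode Caenorhabditis elegans collected 410 min and 330 min after the 4-cell stage, with 3 libraries at each time, chosen by their stage label out of the 24 libraries of an 8-stage series. All embryos were of the wild-type strain N2, were dissected out of adults, carried no treatment and were collected as 50 embryos per sample. The table counts reads for 434 mature miRNA arms, of which 297 had a read in some library and 210 had one in these 6 libraries. Of the 297 arms 128 passed the filter on low counts over all 24 libraries and were tested; 2 of the 128 had no read in the 6 libraries. The labels do not state whether replicates of a stage were grown as separate cultures, so the p-values cover no more than the spread among these samples, which may be technical in part.

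A miRNA gene is transcribed as a hairpin, from which a 5p and a 3p arm are cut, and usually 1 of them is kept in an Argonaute protein. The kept arm pairs through its seed, near its 5′ end, with messenger RNAs and lowers their translation or stability. In C. elegans embryos the mir-35 family is supplied by the mother and made by the early embryo and is needed for embryonic viability, while other miRNAs appear as tissues differentiate. The interval studied lies in the later part of embryogenesis, when most embryonic cell divisions are over and the body elongates. Arms are named as in the table, and which arm of a hairpin received the reads is taken from it unchecked. For mir-39 and mir-74, for example, the table counts nearly all reads for the 5p arm, and miR-44-3p has 0 reads.

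The libraries held 575791, 333135 and 1594151 counts at 410 min and 235647, 177101 and 530469 counts at 330 min, so the later stage was read more deeply; the part of depth in the calls was not tested. Levels below are CPM, the read counts over library sizes scaled by TMM factors, and 1 read was worth 0.917 to 3.43 CPM in the 410 min libraries and 1.94 to 4.18 CPM in the 330 min libraries. The TMM factors were 0.684 to 0.875 at 410 min and 0.973 to 1.35 at 330 min, so scaling raises every level at 410 min relative to plain shares of counts. Log2 CPM correlated between replicates at 0.928 to 0.971 within either stage. The counts of any such pair differed by far more than sampling noise, with a chi-square per degree of freedom of 93.7 or more.

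Between the stages 14 of 128 arms (10.9%) passed the test, from 14 different hairpins. At 410 min, 8 were higher (6.25% of those tested) and 6 were lower (4.69%) than at 330 min, by edgeR's quasi-likelihood test with adjusted p under 0.05. The 8 were miR-1022-3p, miR-242, miR-244-5p, miR-790-3p, miR-245-3p, miR-789-3p, miR-87-3p and miR-228-5p. The 6 were miR-38-5p, miR-35-5p, miR-39-5p, miR-36-3p, miR-43-3p and miR-74-5p. In each of the 14 the 3 libraries of 1 stage all lay above those of the other, which held for 39 of all 128 arms (30.5%), 27 of them higher (21.1%) and 12 lower (9.38%) at 410 min. At an unadjusted p under 0.05 there were 15 arms higher and 10 lower. The split depended on scaling: with total counts in place of TMM factors 4 arms were higher and 12 lower, and with DESeq2 size factors 6 were higher and 6 lower. The median log2 fold change of all 128 arms was 0.25 with TMM and 0.16 with DESeq2 size factors, but -0.21 with total counts. Values given for a left-out library keep the tested arms and TMM factors of the full set, unless said otherwise. The 5 arms whose call held under every setting tried were miR-242, miR-245-3p, miR-39-5p, miR-43-3p and miR-74-5p.

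**Figure D1:**
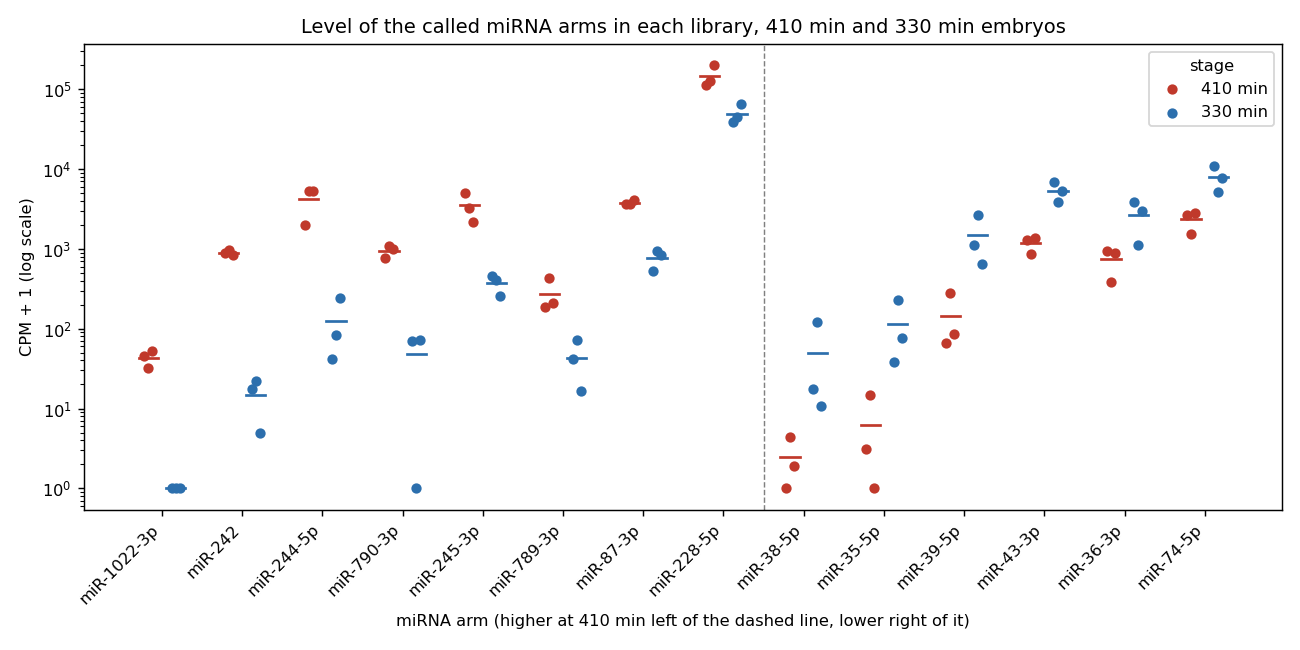
Level of each of the 14 called arms in the 6 libraries, as CPM + 1 on a log scale. Points are libraries (410 min red and left, 330 min blue and right within each arm) and bars are means of 3; arms higher at 410 min stand left of the dashed line. The points of 410 min and 330 min do not overlap in any of the 14.

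The steepest of the rises with reads at both stages was that of miR-242, whose hairpin lies on chromosome IV of WBcel235 (4274247 to 4274342), outside protein-coding genes. It had 884, 965 and 826 CPM at 410 min, against 16.4, 20.9 and 3.88 CPM at 330 min. These were 415, 281 and 900 reads at 410 min, against 4, 5 and 2 reads at 330 min, so the arm stood close to the limit of detection at 330 min and was plainly present in every 410 min library. The log2 fold change was 6.09 ± 1.36 (SE; edgeR adjusted p 0.00352). Its adjusted p stayed between 7.24e-05 and 0.0307 under all the alternatives and left-out libraries.

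miR-244-5p and miR-245-3p come from separate places on chromosome I (4684316 to 4684414 on the minus strand and 7887371 to 7887467 on the plus strand), both outside protein-coding genes. miR-244-5p had 1986, 5281 and 5291 CPM at 410 min, against 40.9, 83.6 and 244 CPM at 330 min. Its highest 330 min library was replicate 3 and its lowest 410 min library replicate 1, and these still differed several-fold. The log2 fold change was 5.06 ± 1.25 (edgeR adjusted p 0.00986), and the call was lost without 330 min replicate 1 (adjusted p 0.0596) or replicate 2 (0.0781). Without 330 min replicate 3 its log2 fold change was 6.07 and the call held.

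miR-245-3p had 5075, 3228 and 2195 CPM at 410 min, against 462, 409.5 and 258 CPM at 330 min. Here 410 min replicate 1 was the highest of the 3 and replicate 3 the lowest, the reverse of miR-244-5p. Within a library the ratio of miR-244-5p to miR-245-3p counts was 0.391, 1.64 and 2.41 at 410 min, against 0.0885, 0.204 and 0.947 at 330 min, with overlap between the stages. The log2 fold change of miR-245-3p was 3.22 ± 0.71 (edgeR adjusted p 0.00277), and it passed under every setting tried. The partner arm miR-245-5p had 0 reads in the 6 libraries.

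miR-228-5p was the single called arm among the 10 most abundant. Its hairpin (chromosome IV, 5562025 to 5562122) belongs to the conserved miR-183 family, and its promoter is widely used to mark glia. It had 112943, 127271 and 200286 CPM at 410 min, against 38329, 44444 and 65098 CPM at 330 min. Its share was 11.3% ± 2.25 of the 410 min counts and 5.44% ± 1.28 of the 330 min counts (SD, n = 3 each). The shares did not overlap between the stages, with 9.21% the lowest at 410 min and 6.33% the highest at 330 min. Its log2 fold change was 1.57 ± 0.50 (edgeR adjusted p 0.0351). The call was lost without 330 min replicate 1 (adjusted p 0.156), 330 min replicate 2 (0.124), 410 min replicate 2 (0.05001, just over the threshold) or 410 min replicate 3 (0.175). It was also lost without 330 min replicate 3 when filter and factors were computed anew (0.0545), with total counts (log2 fold change 1.06, adjusted p 0.0598), without a filter (0.215) and without the 5 most abundant arms (0.0752), in all in 11 of 19 settings.

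The partner arm miR-228-3p was not called. It had 4759.9, 3846 and 4165 CPM at 410 min, against 2188, 1835 and 2363 CPM at 330 min, a log2 fold change of 1.00 ± 0.54 (edgeR adjusted p 0.329). Its libraries did not overlap between the stages either. The 5p to 3p count ratio of mir-228 overlapped, with 23.7, 33.1 and 48.1 at 410 min, against 17.5, 24.2 and 27.6 at 330 min.

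mir-790 lies 4300 bases from mir-228 on the same strand of chromosome IV (5566422 to 5566491) and is counted with it among the relatives of miR-183. miR-790-3p had 773, 1078 and 993 CPM at 410 min, against 69.5, 0 and 71.7 CPM at 330 min. In reads this was 363, 314 and 1082 reads at 410 min, against 17, 0 and 37 reads at 330 min. Every 410 min library therefore stood far above 330 min, where replicate 2 had no read at all. The log2 fold change was 4.30 ± 1.13 (edgeR adjusted p 0.0106), against 1.57 for its neighbour miR-228-5p. Relative to miR-228-3p within a library, miR-790-3p stood at 0.162, 0.280 and 0.238 at 410 min, against 0.0318, 0 and 0.0304 at 330 min. The call of miR-790-3p did not hold without 330 min replicate 2 (adjusted p 0.0514) or by DESeq2's Wald test (0.136). The other arm, miR-790-5p, had 21 reads at 410 min and 6 at 330 min and was not called.

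The remaining 3 risers had weaker support. miR-87-3p, from a hairpin in an intron of kup-1 on chromosome V (12038688 to 12038781) and conserved in insects, had 3688, 3636 and 4090.4 CPM at 410 min, against 528, 940.3 and 831 CPM at 330 min. The 3 later libraries were tightly grouped and all several-fold above the earlier ones. Its log2 fold change was 2.31 ± 0.71 (edgeR adjusted p 0.0317). miR-789-3p, which 2 loci on chromosome IV (mir-789-1 and mir-789-2) can give, had 185, 426 and 207 CPM at 410 min, against 40.9, 71.0 and 15.5 CPM at 330 min, with a log2 fold change of 2.71 ± 0.90 and an edgeR adjusted p of 0.0485. miR-1022-3p (chromosome X, 6435425 to 6435512) had 21, 9 and 56 reads at 410 min, against 0, 0 and 0 reads at 330 min, at least 15.5-fold higher against a floor of 3 counts over the 330 min libraries (edgeR adjusted p 0.0351).

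These 3 calls did not survive the loss of any 1 of the 6 libraries. Over both ways of leaving out a library, with TMM factors kept or with filter and factors computed anew, the adjusted p of miR-87-3p ran from 0.05001 (410 min replicate 2, kept, just over the threshold) to 0.191 (330 min replicate 1, anew). For miR-789-3p it ran from 0.0516 (410 min replicate 1, kept) to 0.297 (330 min replicate 3, anew). For miR-1022-3p it ran from 0.05001 (410 min replicate 2, kept, again just over) to 0.157 (330 min replicate 3, anew). With total counts the adjusted p was 0.144, 0.187 and 0.0645 for miR-87-3p, miR-789-3p and miR-1022-3p, and all 3 were lost too without a filter and without the 5 most abundant arms. With DESeq2 size factors in edgeR, miR-87-3p and miR-789-3p were lost as well, and miR-1022-3p was kept.

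Of the 6 arms that were lower at 410 min, 4 came from the mir-35 to mir-41 cluster. Its hairpins lie within a stretch of chromosome II from 11537608 (mir-35) to 11538404 (mir-41), in an intron of the oppositely transcribed gene Y62F5A.9. The family, which takes in mir-42 as well, accounted for 0.130% ± 0.00835 of the 410 min counts and 0.613% ± 0.140 of the 330 min counts (SD, n = 3 each). The ratio of these shares, 0.212, rests on total counts without TMM factors, which raise levels at 410 min relative to shares. Of its 14 tested arms 4 fell, none rose and 10 did not pass the test, beside 6 lower of all 128 arms (4.69%). The median log2 fold change of the 14 was -2.08, or -1.98 with the 2 arms that had no read at 410 min set at their bounds, beside 0.25 for all 128 arms. The family was chosen with its fall over embryogenesis in these samples known, so its direction here is no independent evidence of that fall.

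miR-36-3p was the most abundant of the 4, with 944, 385 and 882 CPM at 410 min, against 3906, 1120.0 and 2977 CPM at 330 min. In both stages replicate 2 was the lowest library, and the highest 410 min value lay just under the lowest 330 min value. Its log2 fold change was -1.85 ± 0.49 (edgeR adjusted p 0.00986), and the call was lost without 330 min replicate 1 (adjusted p 0.0865) or 410 min replicate 2 (0.0715) and when the 6 libraries were fitted alone (0.0536). miR-39-5p had 66.1, 278 and 84.4 CPM at 410 min, against 1129, 2641 and 643 CPM at 330 min. Here replicate 2 was the highest library at both stages. Its log2 fold change was -3.38 ± 0.69 (edgeR adjusted p 0.00170), and it passed under every setting. The values of miR-39-5p ran from -4.32 without 410 min replicate 2 to -2.60 without 330 min replicate 2, both with filter and factors computed anew. The count ratio of miR-36-3p to miR-39-5p was 14.3, 1.38 and 10.4 at 410 min, against 3.46, 0.424 and 4.63 at 330 min, so that the ratio spread more widely between replicates of a stage than between the stages.

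The other 2 were near or at the limit of detection at 410 min. miR-35-5p had 1, 4 and 0 reads at 410 min, against 9, 55 and 39 reads at 330 min, which gave a log2 fold change of -4.77 ± 1.32 (edgeR adjusted p 0.0144). miR-38-5p had 0, 1 and 1 reads at 410 min, against 4, 29 and 5 reads at 330 min. With 2 reads at 410 min its ratio of 410 min to 330 min was 0.0284 (95% Poisson counting interval 0.00332 to 0.110; edgeR adjusted p 0.00980). For both arms 330 min replicate 2 held most of the scaled signal, and both calls were lost without it (adjusted p 0.102 for miR-35-5p and 0.161 for miR-38-5p). They were lost also without 410 min replicate 1 (adjusted p 0.0757 and 0.0516) or 410 min replicate 3 (0.0808 and 0.0645). With the 6 libraries fitted alone miR-35-5p was not called (adjusted p 0.0536) and miR-38-5p did not pass the filter. Without 410 min replicate 2 the log2 fold change of miR-35-5p was -6.77, and without 330 min replicate 2 that of miR-38-5p was -3.13.

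Several family members were not called. miR-38-3p had no read at 410 min and 3, 11 and 0 reads at 330 min, at least 8.64-fold lower (edgeR adjusted p 0.0592). miR-42-3p had 29.8, 96.1 and 14.7 CPM at 410 min, against 184, 326 and 246 CPM at 330 min, with no overlap and a log2 fold change of -2.47 ± 0.94 (edgeR adjusted p 0.0939); it passed with total counts (adjusted p 0.0378) and with DESeq2 (0.0357). miR-35-3p had 76.1 ± 55.6 CPM at 410 min and 212 ± 166 CPM at 330 min (SD, n = 3 each) with overlapping libraries. miR-42-5p, the partner arm of miR-42-3p, stood at 547 ± 244 CPM at 410 min and 552 ± 123 CPM at 330 min. miR-41-5p had the largest positive value of the family, a log2 fold change of 1.92 ± 1.45 on 151 reads at 410 min and 25 at 330 min (edgeR adjusted p 0.537).

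miR-43-3p had the smallest p of all 128 arms. Its hairpin sits between mir-42 and mir-44 on chromosome II (mir-43 at 11889910 to 11890007, with mir-42 and mir-44 within 16 bases on either side), outside protein-coding genes, and its sequence places it in the mir-2 family. It had 1302, 865 and 1382 CPM at 410 min, against 6855, 3882 and 5287 CPM at 330 min. Replicate 2 was lowest at both stages, and the stages were far apart. The log2 fold change was -2.17 ± 0.44 (edgeR adjusted p 0.00170), and it passed under every setting tried, with log2 fold changes from -2.66 with total counts to -1.95 without 330 min replicate 1.

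The neighbours of miR-43-3p and its own partner arm gave comparisons that do not depend on the scaling of libraries. These ratios of counts within a library were chosen after the values had been seen. The 3p to 5p ratio of mir-43 was 19.7, 22.9 and 17.9 at 410 min, against 129, 103 and 59.3 at 330 min, 4.60-fold lower at 410 min by the means of log2 ratios. The ratio of miR-43-3p to miR-44-5p, its neighbour in the cluster, was 0.0263, 0.0204 and 0.0267 at 410 min, against 0.143, 0.136 and 0.117 at 330 min, which was 5.41-fold lower. miR-42-3p was lower relative to miR-44-5p by 8.50-fold, without overlap, while the ratio of miR-43-3p to miR-42-3p overlapped between the stages. miR-44-5p itself had 47818 ± 4844 CPM at 410 min and 40586 ± 10584 CPM at 330 min (SD, n = 3 each; edgeR adjusted p 0.798). The 5p arms of both hairpins were not called, with log2 fold changes of -0.01 ± 0.66 for miR-42-5p and 0.01 ± 1.05 for miR-43-5p (edgeR adjusted p 1.00 for both). The partner miR-43-5p rested on 68 reads at 330 min, and reads of mir-44 and mir-45, whose mature sequences are alike, may not be told apart.

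miR-74-5p gave the same kind of contrast on chromosome X, where mir-74 (2369043 to 2369139) follows mir-73 after 180 bases. Both belong to the mir-72 family, related to miR-31 of other animals. miR-74-5p had 2625, 1528 and 2854 CPM at 410 min, against 11031, 5199 and 7830.3 CPM at 330 min. The log2 fold change was -1.78 ± 0.40 (edgeR adjusted p 0.00277), and the call held under every setting. miR-73-3p, the main arm of the neighbouring hairpin, had 29352 ± 2083 CPM at 410 min and 30596 ± 10003 CPM at 330 min (SD, n = 3 each) and a log2 fold change of -0.06 ± 0.43. The ratio of miR-74-5p to miR-73-3p was 0.0859, 0.0567 and 0.0934 at 410 min, against 0.310, 0.272 and 0.211 at 330 min, 3.40-fold lower at 410 min. The 5p to 3p ratio of mir-74 was 24.2, 31.8 and 43.8 at 410 min, against 135, 56.5 and 77.7 at 330 min, 2.60-fold lower. The partner miR-74-3p rested on 136 reads at 410 min and 94 at 330 min.

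In mir-87 the 3p arm was higher at 410 min relative to the 5p arm. miR-87-5p, with 5546, 6170.1 and 5737 CPM at 410 min, against 3603, 4915 and 3997 CPM at 330 min, was above the other arm at both stages and was not called (log2 fold change 0.48 ± 0.50, edgeR adjusted p 0.705). The 3p to 5p ratio was 0.665, 0.589 and 0.713 at 410 min, against 0.146, 0.191 and 0.208 at 330 min, 3.63-fold higher at 410 min. In all 12 ratios were computed, and the stages did not overlap in 8 of them. The pairs were chosen after the values had been seen, mostly around called arms, so this count is no independent evidence. Among single arms, 39 of all 128 (30.5%) did not overlap. Exact two-sided permutation tests of log2 ratios, possible for 10, gave p = 0.1 where the libraries did not overlap, the smallest that 3 against 3 libraries allow, and 0.167 after Benjamini-Hochberg adjustment over the 10. These tests therefore could not pass 0.05.

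**Figure D2:**
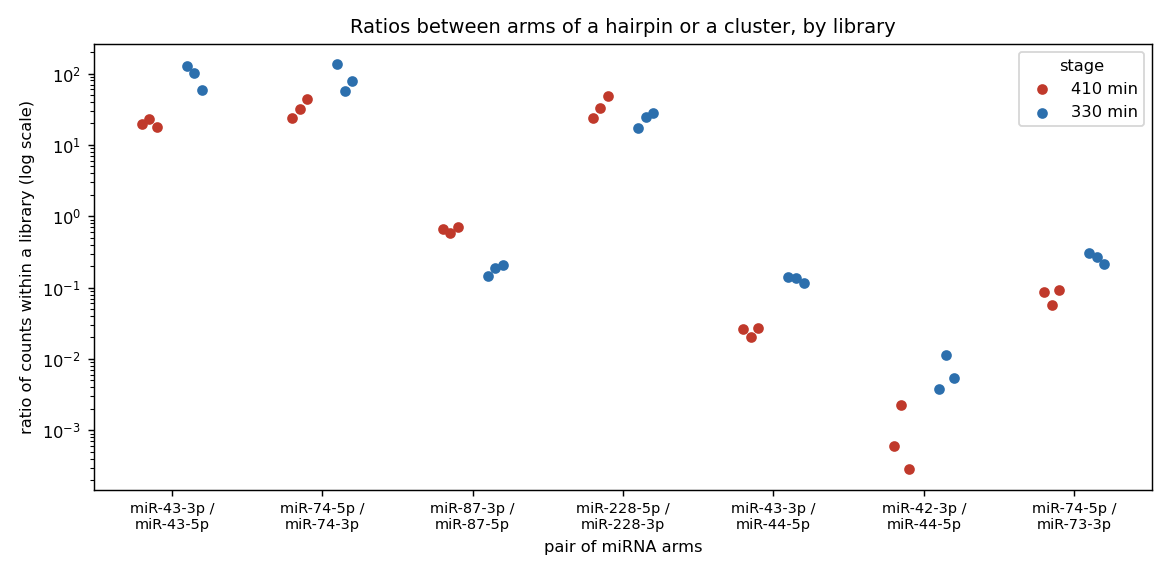
Ratios of read counts between arms of a hairpin or of neighbouring hairpins in each library, on a log scale (410 min red and left, 330 min blue and right). The ratios of miR-43-3p, miR-42-3p and miR-74-5p to their partners are lower in the 3 libraries of 410 min than in those of 330 min, that of miR-87-3p is higher, and that of miR-228-5p to miR-228-3p overlaps.

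Placed in the whole timecourse, the arms that rose differed in the stages at which they were read. The means of miR-245-3p at 60, 270, 330, 410 and 500 min were 1401, 305, 377, 3499 and 62735 CPM. For miR-244-5p, the means at 60, 180, 330, 410 and 500 min were 285, 13.2, 123, 4186 and 26339 CPM. miR-789-3p went on to 4847 ± 1186 CPM at 500 min and miR-1022-3p to 275 ± 103 CPM (SD, n = 3 each). By contrast, miR-790-3p, at no more than 2.92 CPM on average up to 270 min, stood at 948 CPM at 410 min and 976 at 500 min.

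The comparison of 500 min with 410 min shares the 410 min libraries, so its values are only set beside those of the interval studied. From 410 to 500 min the log2 fold change was 4.16 ± 0.73 for miR-245-3p, 4.15 ± 0.93 for miR-789-3p and 2.65 ± 1.11 for miR-244-5p, and 1.20 ± 1.06 for miR-242 and 0.04 ± 0.98 for miR-790-3p (SE). Another arm of the late group, miR-788-3p, had no read at 410 or 330 min and 296 reads at 500 min. The course of miR-228-5p ran over more stages, with means of 2625, 26786 and 241620.0 CPM at 120, 270 and 500 min.

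The arms that fell differed in the stage at which their mean level was highest. miR-74-5p averaged 77818, 25274, 10291, 8020.1 and 2336 CPM at 60, 120, 270, 330 and 410 min. miR-43-3p was highest at 180 min, with 16082 ± 5795 CPM (SD, n = 3), and averaged 5816, 5342, 1183 and 345 CPM at 270, 330, 410 and 500 min. Between 270 and 330 min its log2 fold change was -0.12 ± 0.42, against -2.17 ± 0.44 between 330 and 410 min. That of miR-39-5p was -0.62 ± 0.63 in the earlier step and -3.38 ± 0.69 in the later one.

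Whether an arm's log2 fold change from 330 to 410 min differed from that between 270 and 330 min was tested in the same fit. The test was of the signed difference of the 2 steps, so an arm that turned round can also have a small p. One example was miR-64-3p, at -2.69 ± 0.99 in the earlier step and 2.41 ± 0.99 in the later one (SE, edgeR unadjusted p 0.00923). No arm passed (edgeR, 0 of 128, or 0%; smallest adjusted p 0.418), and 8 arms had an unadjusted p under 0.05. The steps share the 330 min libraries and differ in length. The smallest p was that of miR-43-3p, with a difference of -2.05 ± 0.71 (SE; unadjusted p 0.00664). It was the 1 arm called with DESeq2's Wald test (adjusted p 0.0109) and with total counts in edgeR (adjusted p 0.00448). For miR-245-3p the difference was 2.92 ± 1.21 (unadjusted p 0.0220). For miR-242 it was 4.67 ± 2.35 (unadjusted p 0.0576).

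**Figure D3:**
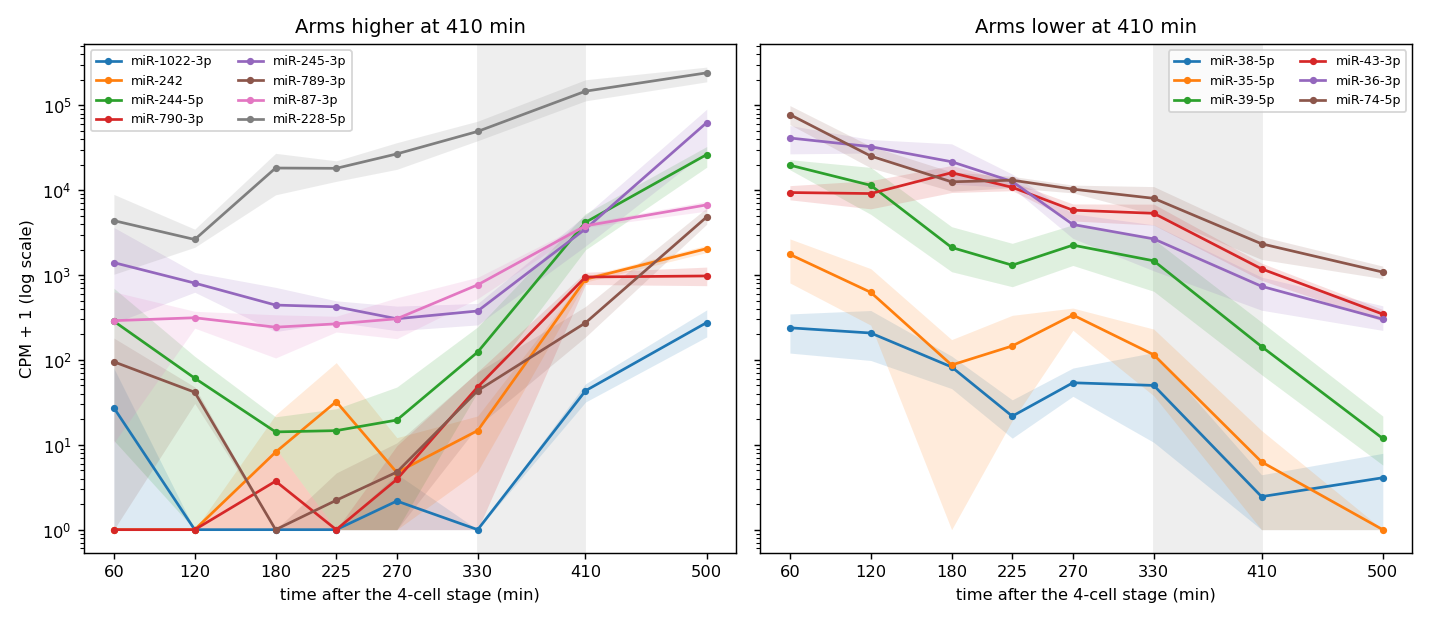
Mean level of the called arms over the 8 stages, as CPM + 1 on a log scale against minutes after the 4-cell stage; bands run from the lowest to the highest of 3 libraries, and the grey strip marks 330 to 410 min. Arms higher at 410 min are on the left, where the means of miR-245-3p and miR-244-5p are higher still at 500 min and that of miR-790-3p is nearly level; arms lower at 410 min are on the right.

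A few abundant miRNAs supplied most of the counts at both stages. The 10 arms of the highest mean level supplied 89.0% ± 1.12 of the 410 min counts and 88.0% ± 0.720 of the 330 min counts (SD, n = 3 each), and only miR-228-5p of the 10 was called. miR-57-3p led at both stages with 31.6% ± 3.48 of the 410 min counts and 28.4% ± 4.59 of the 330 min counts. Its log2 fold change was 0.66 ± 0.37 (edgeR adjusted p 0.343). miR-72-5p of the miR-31 relatives supplied 11.8% ± 0.279 of the 410 min counts and 9.26% ± 1.12 of the 330 min counts, without overlap, and had a log2 fold change of 0.83 ± 0.36 (edgeR adjusted p 0.167).

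miR-64-5p and miR-65-5p, of the mir-64 cluster within gcn-1, took smaller shares at the later stage. miR-64-5p supplied 5.18% ± 0.787 of the 410 min counts and 10.1% ± 2.48 of the 330 min counts, and miR-65-5p 4.05% ± 1.04 of the 410 min counts and 8.24% ± 2.53 of the 330 min counts. Neither overlapped between the stages, and neither was called with TMM factors (log2 fold changes -0.48 ± 0.35 and -0.55 ± 0.39; edgeR adjusted p 0.529 for both). With total counts both passed, at log2 fold changes of -0.96 and -1.02 (edgeR adjusted p 0.00516 and 0.0168). Whether their amount or only their share was lower cannot be told apart in these counts.

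The bantam-related arms miR-82-3p and miR-81-3p overlapped between the stages, with 150465 ± 38718 CPM at 410 min and 111429 ± 47101 CPM at 330 min for the first and 66702 ± 14528 CPM at 410 min and 43299 ± 17354 CPM at 330 min for the second (SD, n = 3 each). miR-44-5p, miR-73-3p and miR-235-3p, a relative of miR-92, overlapped as well. Of the 10 most abundant arms miR-235-3p varied most among replicates at both stages, with 52955, 14885 and 12464 CPM at 410 min, against 30137, 21459 and 11387 CPM at 330 min.

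**Figure D4:**
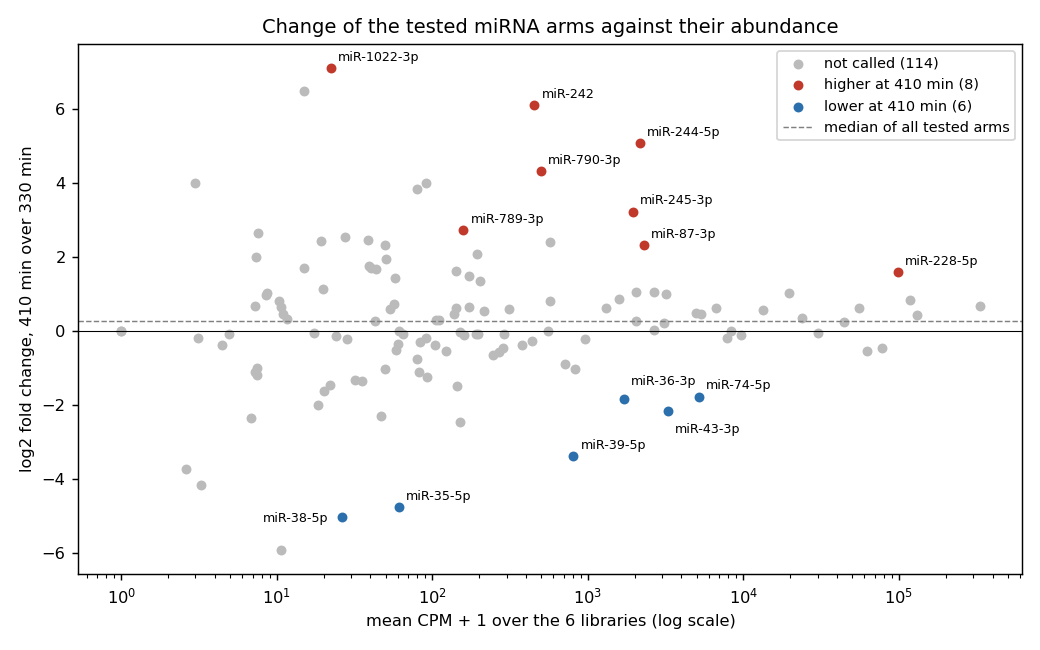
Log2 fold change (410 min over 330 min) of the 128 tested arms against mean CPM + 1 over the 6 libraries, on a log scale. Called arms are named, with 8 higher in red and 6 lower in blue; miR-228-5p is the most abundant of them, and the dashed line is the median of all arms, 0.25.

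Counted by family and tissue, called arms stood on 7 of the 17 lists, which were drawn up with earlier results of these samples known. The late-onset list (mir-242, mir-244, mir-245, mir-248, mir-788, mir-789 and mir-790) was put together from such results, so its direction is no independent evidence. Of its 8 tested arms 5 rose, none fell and 3 did not pass, beside 8 higher of all 128 arms (6.25%); 1 of the 3 had no read at either stage. The median log2 fold change was 2.96 over the 8 tested arms and 3.22 over the 7 with reads, beside 0.25 for all 128 tested arms. Its share was 0.784% ± 0.160 of the 410 min counts and 0.0703% ± 0.0132 of the 330 min counts (SD, n = 3 each), 11.2 times as large. Despite its name the list was read earlier too, with shares of 0.109% ± 0.118 at 60 min and 0.119% ± 0.0216 at 120 min. At 270 min its share was 0.0379% ± 0.0116. miR-248 was not called, with 104 reads at 410 min and 15 at 330 min.

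The counts for the other families stand beside 14 called of all 128 arms (10.9%), and no difference from that share was tested. Of the 6 tested arms of the mir-2 family miR-43-3p fell and 5 did not pass; the main arm of mir-2 had 2763 ± 1171 CPM at 410 min and 1345 ± 897 CPM at 330 min (SD, n = 3 each), with overlap. Of the 6 arms of the mir-72 family miR-74-5p fell and 5 did not pass. None of the 8 arms of the mir-64 cluster, the 8 of the mir-58 family, the 8 of the mir-51 family or the 4 of the mir-44 family passed the test. Their median log2 fold changes were -0.15, 0.21, 0.37 and 0.39, and with total counts all 4 were negative. That of the mir-58 family was negative also without the 5 most abundant arms, and that of the mir-51 family without a filter. miR-52-5p of the mir-51 family had 6833, 5415 and 6291 CPM at 410 min, against 4851, 3999 and 4739 CPM at 330 min, without overlap and with an edgeR adjusted p of 0.701. miR-58a-3p of the bantam relatives had 32705, 17583 and 28595 CPM at 410 min, against 14643, 7890.0 and 16484 CPM at 330 min, again without overlap (log2 fold change 1.02 ± 0.53, edgeR adjusted p 0.300). miR-45-3p of the mir-44 family was lower in all 3 libraries of 410 min, at 538 ± 44.7 CPM at 410 min and 1104 ± 49.5 CPM at 330 min. It was not called (edgeR adjusted p 0.304) but passed with total counts (0.0378) and with DESeq2 (0.0494). The mature sequences of mir-44 and mir-45 are alike, so reads counted for miR-45-3p may come from either hairpin.

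None of the 3 tested arms of the mir-75 and mir-79 family, the 2 of the mir-50, mir-62 and mir-90 family and the 3 of the mir-49 and mir-83 family was called. miR-79-3p had 147, 219.7 and 269.7 CPM at 410 min, against 49.1, 54.3 and 103 CPM at 330 min, and its partner miR-79-5p 211, 206 and 154 CPM at 410 min, against 274, 330.1 and 289 CPM at 330 min. The libraries did not overlap for either arm, the first lying higher and the second lower at 410 min, with edgeR adjusted p of 0.423 and 0.784. miR-50-5p had 8103 ± 1979.9 CPM at 410 min and 5286 ± 1920.5 CPM at 330 min, and miR-49-5p, of the miR-29 relatives, 2026 ± 1226 CPM at 410 min and 1122 ± 394 CPM at 330 min (SD, n = 3 each), both with overlap. miR-83-3p, also of the miR-29 relatives, had 47, 12 and 55 reads at 410 min, against 5, 0 and 7 reads at 330 min and was not called.

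**Figure D5:**
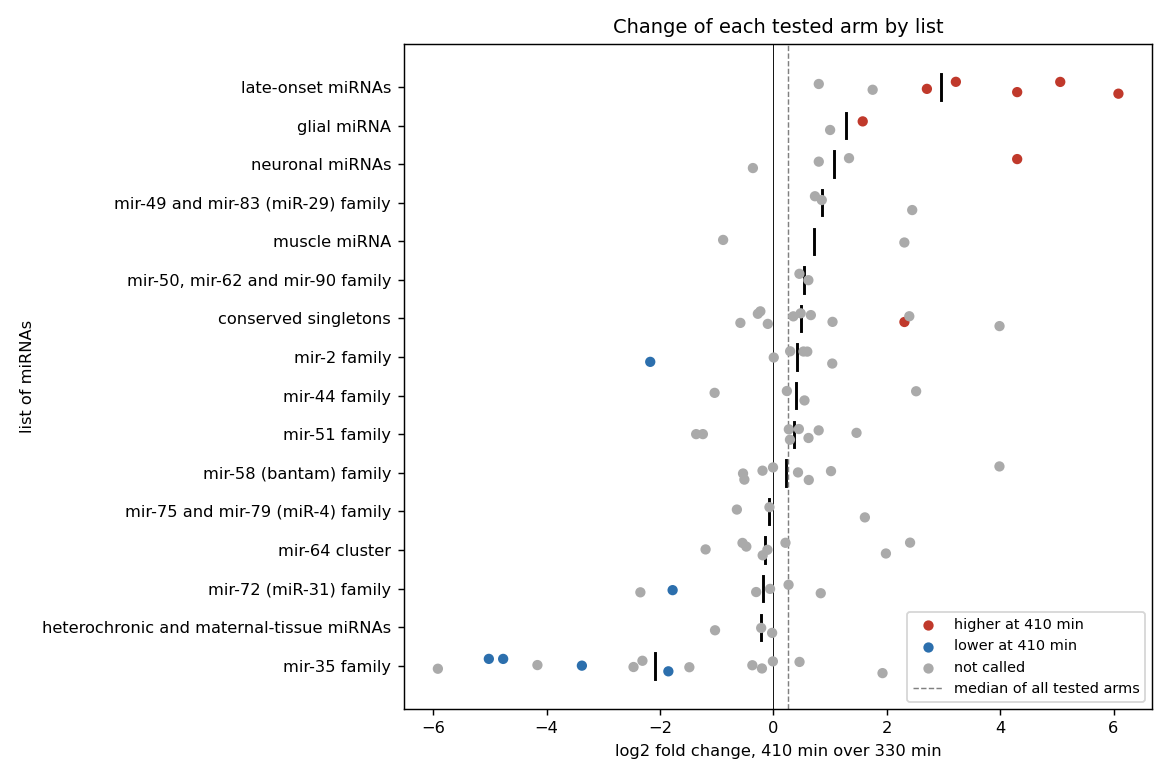
Log2 fold change (410 min over 330 min) of each tested arm with a read in the 6 libraries, by list; red points are arms higher and blue points arms lower at 410 min, black bars are list medians over all tested arms, and the dashed line is the median of all 128 arms. The late-onset list holds 5 red points and the mir-35 family 4 blue ones; mir-790 is in both the late-onset and the neuronal list.

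Among the lists of single tissues, 1 of the 2 tested glial arms (miR-228-5p) and 1 of the 4 on the neuronal list (miR-790-3p) were called. None of the 2 muscle arms and not the 1 intestinal arm were called, beside 10.9% of all arms. The hairpin mir-790 was not among the neuronal markers themselves and is on the late-onset list too. The tested arms of those markers, lsy-6-3p and miR-124-5p, were not called. Of the 11 tested arms on the list of conserved singletons miR-87-3p rose and 10 did not pass. The neuronal lsy-6-3p, whose miRNA makes the left and right ASE taste neurons differ, had 211, 361 and 294 CPM at 410 min, against 81.8, 150.4 and 110.5 CPM at 330 min. Its 3 later libraries were all higher, and it was not called (log2 fold change 1.33 ± 1.04, edgeR adjusted p 0.569). Muscle mir-1 had arms on both sides, with 80.3 ± 48.4 CPM at 410 min and 16.6 ± 15.0 CPM at 330 min for miR-1-3p and 503 ± 136 CPM at 410 min and 931 ± 469.6 CPM at 330 min for miR-1-5p (SD, n = 3 each), neither called (edgeR adjusted p 0.498 and 0.529). Neuronal miR-124-5p had 51.4 ± 23.0 CPM at 410 min and 66.1 ± 51.5 CPM at 330 min, and intestinal miR-60-3p 328 ± 161 CPM at 410 min and 426 ± 135 CPM at 330 min, both with overlap.

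The mir-35 family, the marker of embryos, was read in all 6 libraries. The heterochronic miRNAs, made mainly in larvae and adults, served as markers of maternal tissue left on the dissected embryos. Of their 17 listed arms 3 were tested and none was called, and let-7-5p and lin-4-5p had 0 reads in the 6 libraries. The list's summed share was 0.0110% to 0.0255% in the 410 min libraries and 0.0213% to 0.0311% in the 330 min libraries, and its part in the results above was not tested. Most of it came from miR-48-5p, with 149 ± 59.0 CPM at 410 min and 152 ± 7.17 CPM at 330 min (SD, n = 3 each; edgeR adjusted p 1.00). In bulk samples more cells of a type and more of an RNA per cell cannot be told apart, which holds for every tissue marker named here.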

How the data were processed

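The authors deposited raw read counts per mature miRNA arm, as whole numbers in 1 column per library, and all columns matched a sample description. Bowtie and HTSeq are named per the submitters' processing notes. Not given in the sources used here are tool versions, build, miRNA annotation and the handling of strand and of reads that fit several miRNAs. Arms of near-identical sequence can therefore share reads. Total RNA came from TRIzol extraction and went into ligation-based small-RNA libraries amplified by PCR, per the labels' protocols, which name no molecular identifiers, so intervals and floors cover counting error only.

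Arms passing edgeR's filterByExpr by stage (minimum count 10) over the 24 libraries were tested in R 4.3.3 with edgeR 4.0.16, limma 3.58.1 and TMM factors. A single quasi-likelihood fit with stage as a factor gave the contrast of 410 min minus 330 min, and p-values were Benjamini-Hochberg adjusted over the 128 tested arms (threshold 0.05). A standard error is the log2 fold change over the root of its F statistic. Filtering left out 169 arms with reads, which held 0.0295% of counts at 410 min and 0.0269% at 330 min. Folds against a stage without reads are bounds against 3 counts over its libraries. Fits were tested on simulated counts in 10 draws. Among changed arms that passed the filter, 37.1% of 4-fold and 76.3% of 16-fold changes were recovered. Of the calls made there, 4.09% were false. Most 4-fold changes were thus missed in simulation, so an arm that was not called may still have changed.

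Named arms were the called arms whose libraries did not overlap, the 8 with the smallest unadjusted p in the direction with fewer calls, the 10 most abundant, their partner arms and at most 4 per list. Members and lists were chosen with earlier results of these data known. Deviations of same-numbered libraries from their stage means correlated at r = 0.271, 0.207 and 0.463 for replicates 1, 2 and 3, each over 0.1, so a replicate block was fitted as an alternative beside other scalings, DESeq2 1.42.0, no filter, other sample sets and left-out libraries. Hairpin positions are from the Ensembl annotation of WBcel235, 1-based, which held all 92 hairpins of the tested arms by name.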

Additional observations from a re-analysis of the deposited data

How the results depend on the processing

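Against 8 arms higher and 6 lower at 410 min, total counts gave 4 higher and 12 lower, and DESeq2's Wald test 7 higher and 10 lower. Without a filter (297 arms tested) there were 4 higher and 6 lower, and the same counts without the 5 most abundant arms (122 tested). The 6 libraries alone (95 tested) gave 10 higher and 3 lower. Leaving out 1 library gave 3 to 6 higher and 4 to 7 lower, with 128 arms tested or 136 to 138 where the filter was applied anew. The replicate block kept all 14 calls, added miR-1820-5p (9 higher, 6 lower) and changed no other call. For the difference of the steps, 0 arms passed with left-out libraries and 1, miR-43-3p, with total counts and with DESeq2. Over the named arms no log2 fold change turned round where it had been called, 81 values lost the call, 14 gained it and 1237 stayed on their side of the threshold. The median of all tested arms ran from 0.00 to 0.35 with left-out libraries.

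The 410 to 330 min ratio of shares was 0.552 for the mir-72 family without the 5 most abundant arms, which include miR-72-5p, against 1.06 with them. Left-out libraries moved it from 1.04 to 1.10. They moved that of the mir-35 family from 0.188 to 0.234, of the mir-58 family from 0.917 to 1.15, of the mir-64 cluster from 0.467 to 0.590 and of the late-onset list from 9.88 to 12.4. Apart from what each setting does by construction, the cause of these changes was not tested. Of the 14 called arms 10 had a read in each of the 6 libraries, and for the others a level at 0 means only that no read was seen at this depth.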

Other observations

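The arms below were chosen after their values had been seen. miR-76-3p, a single-copy conserved miRNA, had 914, 924 and 1028 CPM at 410 min, against 110.4, 171 and 259.7 CPM at 330 min, with a log2 fold change of 2.40 ± 1.03 (edgeR adjusted p 0.164). It was called when the 6 libraries were fitted alone, as was miR-1018. miR-34-3p, from the hairpin related to mammalian miR-34, had 232, 120.2 and 153 CPM at 410 min, against 0, 33.4 and 0 CPM at 330 min (log2 fold change 3.99 ± 1.42, edgeR adjusted p 0.0672), and was called without 330 min replicate 2. miR-1820-5p, the arm added by the replicate block, had 4, 59 and 253 reads at 410 min, against 0, 0 and 14 reads at 330 min and an edgeR adjusted p of 0.218 without the block.

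Among the 210 arms with reads in the 6 libraries, 3 were read in every 410 min library and in no 330 min library. Apart from miR-1022-3p these were miR-75-3p and miR-2217a-3p, and no arm showed the reverse. The 410 min libraries together held 2503077 counts and the 330 min libraries 943217, with 189 and 165 arms read. The part of depth in this one-sided count was not tested. miR-75-3p, which shares a family with miR-79, had 9, 3 and 13 reads at 410 min, against 0, 0 and 0 reads at 330 min, at least 4.50-fold higher. miR-2217a-3p had 5, 4 and 5 reads at 410 min, against 0, 0 and 0 reads at 330 min, at least 2.52-fold higher. Neither passed the filter, and neither was tested.

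By position, chromosome II held 5 of the 6 arms that were lower, those of the mir-35 cluster and miR-43-3p, among 29 tested arms, beside 4.69% of all 128, and none that was higher. Chromosome IV held 4 of the 8 that were higher among 26 tested arms, beside 6.25% of all 128, and none that was lower. Neighbouring hairpins are not independent, and no test was made of these counts.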
